A study of Arabidopsis thaliana with 6 samples.

Results

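IRT1, its neighbour IRT2, the transcription factor FIT, the peptide genes IMA1 and IMA2, and 5 genes of coumarin production and export were followed in whole Arabidopsis thaliana seedlings of the athb1-1 mutant and of wild type. The 10 genes were taken by locus from tables of 33602 genes: FIT (AT2G28160), MYB72 (AT1G56160), IMA1 (AT1G47400), IMA2 (AT1G47395), IRT1 (AT4G19690), IRT2 (AT4G19680), F6'H1 (AT3G13610), S8H (AT3G12900), CYP82C4 (AT4G31940) and PDR9 (AT3G53480). They were picked with the gene counts of athb1-1 against wild type already known, IRT1 standing out among them, so the genotype values of these 10 genes are a description and carry no test.

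Arabidopsis takes up iron by acidifying the soil, reducing ferric iron at the root surface and carrying ferrous iron into epidermal cells. FIT, a bHLH transcription factor, acts together with a small group of other bHLH factors and switches on the transporter gene IRT1 and the reductase gene FRO2 when iron is short. IMA1 and IMA2 encode short peptides that raise this response, and MYB72, F6'H1, S8H, CYP82C4 and PDR9 belong to the branch that makes coumarins and secretes them to mobilise iron around the root.

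The libraries came from athb1-1 seedlings, 3 in number, and from wild-type (WT) seedlings, also 3, all of the Columbia ecotype. The labels do not describe the athb1-1 lesion, and they call the libraries biological triplicates without naming separate plants or plates. Both groups were stratified for 3 days, grown on agar with Murashige and Skoog medium under short days (8 h light, 16 h dark, 22 to 24 °C) and collected 1 h before dawn. The labels give the growth as 4 days and also as 72 h after stratification, and which of these holds is not settled by them. Root, hypocotyl and cotyledon were extracted together, so a root gene can differ through fewer cells of a type or through less RNA per cell, and these cannot be told apart.

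Gene counts totalled 12841376 to 13153615 per athb1-1 library and 11036314 to 11974342 per WT library. Every athb1-1 library was therefore deeper than every WT library, and levels are given below as CPM, reads scaled to a common library size with TMM factors. The transcript of ATHB1, a homeodomain-leucine zipper transcription factor and the gene mutated, stood at 8.57 ± 0.504 CPM in athb1-1 and at 405 ± 40.5 CPM in WT (SD, n = 3), from exon bins summed over the locus and the gene AT3G01472 merged with it, since the gene counts list ATHB1 at 0. This was a log2 fold change of −5.56 (SE 0.12, edgeR quasi-likelihood test, Benjamini-Hochberg adjusted p 7.36e-11). WT replicate 2 stood apart: chi-square divided by degrees of freedom was 10.5 against WT replicate 1 and 12.6 against WT replicate 3, and 4.28 to 4.46 for the other pairs within a genotype. Markers of root hairs, endodermis, stele and shoot were all detected, 18 of 18 root markers and 5 of 5 shoot markers.

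All 10 genes lie on the plus strand, with these positions in TAIR10.1. FIT spans chr2:12004658-12006276, IRT1 chr4:10707344-10709015 and IRT2 chr4:10703348-10704838. IMA1 spans chr1:17385707-17386485, IMA2 chr1:17382998-17383830 and MYB72 chr1:21022384-21023587. F6'H1 spans chr3:4449259-4450811, S8H chr3:4104463-4106341, PDR9 chr3:19825267-19831880 and CYP82C4 chr4:15451988-15454224.

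The coding sequences of IMA1 and IMA2 are shown because they limit how far the counts of these peptide genes can be separated. They are RefSeq sequences of TAIR10.1, at chr1:17385818-17385970 for IMA1 and chr1:17383117-17383269 for IMA2, both on the plus strand, and capitals mark the longest run they share, 55 bases at the end that includes the stop codon.
IMA1: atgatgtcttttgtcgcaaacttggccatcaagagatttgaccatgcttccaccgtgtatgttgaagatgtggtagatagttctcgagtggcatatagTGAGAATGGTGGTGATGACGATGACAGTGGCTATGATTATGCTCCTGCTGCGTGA
IMA2: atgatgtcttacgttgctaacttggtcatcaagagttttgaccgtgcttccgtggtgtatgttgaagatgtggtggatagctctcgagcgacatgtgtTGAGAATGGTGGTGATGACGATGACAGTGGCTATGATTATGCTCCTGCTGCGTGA

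Each sequence has 153 bases, and 136 of 153 aligned positions were identical (88.9%). Over their whole exons the longest shared run was 59 bases, and 10 of the 730 windows of 50 bases in IMA1 exons also occurred in IMA2 exons. A read lying wholly inside that run could come from either gene, by a counting rule not given in the sources used here. IRT1 and IRT2, which also lie side by side, shared 72.9% of aligned coding positions, and their longest shared exon run was 22 bases, so no window of 50 bases was common to both.

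The 300 bases before the annotated start are shown for IRT1 and IRT2, adjacent genes with unlike counts, and for the IMA pair. All are on the plus strand of TAIR10.1, at chr4:10707044-10707343 for IRT1, chr4:10703048-10703347 for IRT2, chr1:17385407-17385706 for IMA1 and chr1:17382698-17382997 for IMA2. Capitals mark matches to CANNTG, the E-box that bHLH factors such as FIT can recognise.
IRT1: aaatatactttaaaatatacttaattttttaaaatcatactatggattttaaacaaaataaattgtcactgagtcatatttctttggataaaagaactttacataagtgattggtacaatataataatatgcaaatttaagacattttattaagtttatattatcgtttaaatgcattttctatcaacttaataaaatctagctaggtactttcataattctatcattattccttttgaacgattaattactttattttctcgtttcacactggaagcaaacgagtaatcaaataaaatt
IRT2: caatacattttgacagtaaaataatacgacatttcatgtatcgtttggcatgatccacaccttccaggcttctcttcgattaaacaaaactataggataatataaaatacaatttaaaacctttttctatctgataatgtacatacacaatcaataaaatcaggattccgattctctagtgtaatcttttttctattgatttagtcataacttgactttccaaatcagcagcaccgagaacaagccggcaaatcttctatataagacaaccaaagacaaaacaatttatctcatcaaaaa
IMA1: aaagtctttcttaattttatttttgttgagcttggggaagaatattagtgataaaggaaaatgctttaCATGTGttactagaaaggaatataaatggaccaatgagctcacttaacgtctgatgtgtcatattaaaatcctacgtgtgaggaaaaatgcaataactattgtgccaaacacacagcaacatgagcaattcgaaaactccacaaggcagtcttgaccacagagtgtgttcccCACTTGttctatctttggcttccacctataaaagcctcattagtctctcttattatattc
IMA2: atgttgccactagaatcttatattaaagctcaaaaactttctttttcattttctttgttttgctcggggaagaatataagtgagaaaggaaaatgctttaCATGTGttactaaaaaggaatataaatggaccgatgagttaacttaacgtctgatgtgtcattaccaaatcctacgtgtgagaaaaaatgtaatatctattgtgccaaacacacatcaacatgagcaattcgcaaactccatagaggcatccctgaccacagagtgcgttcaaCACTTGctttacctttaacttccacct

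The windows were searched on both strands for CANNTG, for CACGTG (the G-box, a special case of CANNTG) and for CAATNATTG, the element bound by homeodomain-leucine zipper class I proteins. CANNTG occurred in the windows of 6 of the 10 genes, and in 61.9% of 27443 windows of the same length before protein-coding genes. CACGTG occurred in none of the 10 and in 7.09% of all windows, and CAATNATTG in none of the 10 and in 1.14% of all windows. The IRT1 and IRT2 windows held none of these letters. In IMA1 the E-boxes CATGTG and CACTTG began 232 and 60 bases before the start, and in IMA2 the same letters began 200 and 27 bases before it. The upstream windows of IMA1 and IMA2 were 70.0% identical when aligned, those of IRT1 and IRT2 52.0%. The IRT1 window had the lowest G and C content of the 10, at 21.7%.

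IRT1, the main iron transporter of the root surface, had at most 2 reads in any WT library and at least 36 in each athb1-1 library. It had 36, 85 and 139 reads in athb1-1 replicates 1, 2 and 3, against 1, 1 and 2 reads in WT replicates 1, 2 and 3. In CPM this was 2.61, 6.64 and 10.8 in athb1-1 and 0.0929, 0.0910 and 0.164 in WT. The lowest athb1-1 library lay 15.9-fold above the highest WT library, so the groups did not overlap.

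Summed over libraries, IRT1 had 260 reads in athb1-1 and 4 in WT, a ratio of 55.9 after scaling, with a 95% interval of 21.6 to 207 that covers counting error only. The log2 fold change was 4.61 with a prior count of 2, which pulls genes with few reads toward 0, and the authors' deposited table gives 5.70 once its sign is turned to athb1-1 over WT. The athb1-1 libraries differed among themselves by 4.12-fold, the highest being replicate 3 and the lowest replicate 1. Without athb1-1 replicate 3, the highest of them, the log2 fold change was 4.08, and without athb1-1 replicate 1 it was 4.96.

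The bin with the most IRT1 reads was bin 2 in each athb1-1 library. Of 279 exon bin counts in athb1-1, bin 2 held 194 (69.5%), bin 5 held 57 (20.4%) and bin 4 held 23 (8.24%). The 4 bin counts of WT fell in bins 2, 4 and 5. Bin 3 was at 0 in all 6 libraries. These shares take no account of the length of each bin, so nothing is read from them or from the empty bin. The 279 bin counts in athb1-1 exceed its 260 gene reads, by a counting rule not given in the sources used here.

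**Figure D1:**
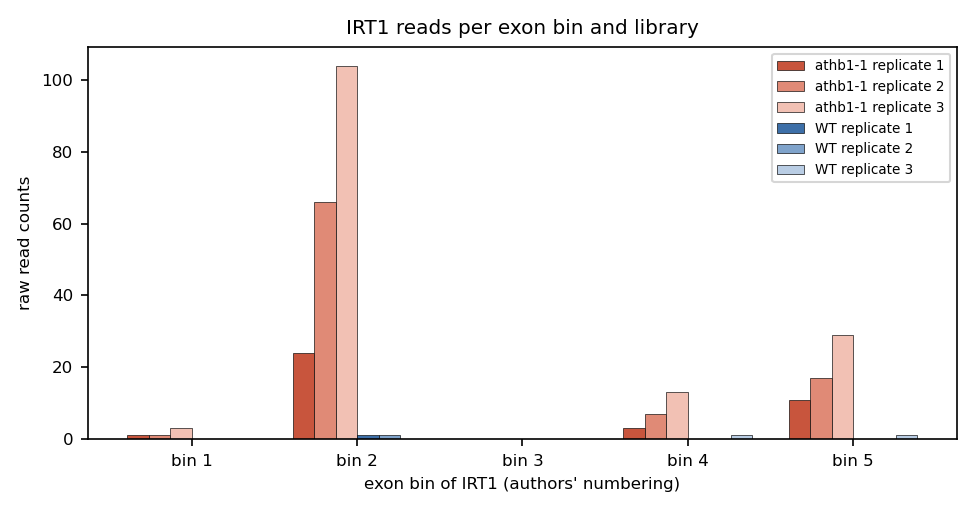
Raw read counts of IRT1 in each of its 5 exon bins (x axis, in the authors' numbering) in the 3 athb1-1 libraries (red shades) and the 3 WT libraries (blue shades). Bin 2 reaches 24, 66 and 104 reads in athb1-1 and at most 1 read in WT.

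IRT2, a second iron transporter of the same family that lies 2505 bases from IRT1, was low in both genotypes. It had 22, 22 and 5 reads in athb1-1 (1.60, 1.72 and 0.387 CPM) and 5, 19 and 8 reads in WT (0.465, 1.73 and 0.655 CPM). The groups overlapped: the lowest of the 6 libraries was athb1-1 replicate 3, the library in which IRT1 was highest, and the highest was WT replicate 2. The mean was 1.23 ± 0.736 CPM in athb1-1 and 0.949 ± 0.681 CPM in WT (SD, n = 3), and the log2 fold change of 0.33 lay between 0.05 and 0.94 when single libraries were left out.

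FIT, the activator of IRT1, was well detected and differed little between genotypes. It had 232, 184 and 231 reads in athb1-1 (16.8, 14.4 and 17.9 CPM) and 155, 155 and 163 reads in WT (14.4, 14.1 and 13.3 CPM). Replicates 1 and 3 of athb1-1 lay above all WT libraries, and athb1-1 replicate 2 lay within the WT range. The mean of 16.4 ± 1.80 CPM in athb1-1 was 1.17-fold the mean of 14.0 ± 0.544 CPM in WT (SD, n = 3).

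MYB72, a MYB transcription factor of the coumarin branch, had no read in any of the 6 libraries. A count of 0 allows up to 0.0758 CPM over the summed athb1-1 libraries and 0.0882 CPM over the summed WT libraries, each the level of 3 reads. MYB72, with 1034 bases of exon, overlaps a long non-coding RNA gene, AT1G56165, on the opposite strand by 829 bases. The strand setting and counting rule are not given, so reads there may have gone uncounted or to AT1G56165. The CPM limits hold only for reads that could be counted for MYB72.

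IMA2 was low in both genotypes and higher in athb1-1 in these libraries. It had 12, 23 and 15 reads in athb1-1 (0.871, 1.80 and 1.16 CPM) and 0, 7 and 5 reads in WT (0, 0.637 and 0.409 CPM). Each athb1-1 library was above each WT library, the closest being athb1-1 replicate 1 and WT replicate 2, which differed by 1.37-fold. The summed ratio was 3.58 (95% counting interval 1.88 to 7.39), and the log2 fold change of 1.47 ranged from 1.07 without WT replicate 1, the library with no read, to 1.92 without WT replicate 2.

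IMA1, whose coding sequence ends in the same 55 bases as that of IMA2, was barely detected. It had 1, 3 and 3 reads in athb1-1 and 1 read in each WT library. The summed ratio of 2.01 had a 95% counting interval of 0.458 to 12.0, so no difference was detectable at this depth.

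F6'H1 encodes the enzyme that opens the coumarin branch by hydroxylating feruloyl-CoA. It had 136, 98 and 125 reads in athb1-1 (9.87, 7.65 and 9.67 CPM) and 63, 93 and 78 reads in WT (5.85, 8.46 and 6.39 CPM). The groups overlapped through athb1-1 replicate 2 and WT replicate 2 alone. The mean was 9.06 ± 1.23 CPM in athb1-1 and 6.90 ± 1.38 CPM in WT (SD, n = 3), a log2 fold change of 0.39, which ranged from 0.29 without WT replicate 1 to 0.55 without WT replicate 2. F6'H1 shares 67 bases with PUT4 on the opposite strand, and reads there could belong to either gene.

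The later enzymes of the branch were at or near the limit of detection. S8H, which turns scopoletin into fraxetin, had no read in any library, with the same limits in CPM as MYB72. CYP82C4, a cytochrome P450 that acts on fraxetin, had 0, 3 and 7 reads in athb1-1 and 0 in all WT libraries. The groups overlapped, since athb1-1 replicate 1 had 0 reads, as did the WT libraries. Set against 3 reads over the summed WT libraries, CYP82C4 stood 2.86-fold higher in athb1-1 after scaling. This takes its 10 reads as exact, so it is not a lower limit that covers their counting error. Without athb1-1 replicate 3, which held 7 of the 10, only 3 reads remain, no more than that floor, and no fold can be given. Its reads came from athb1-1 replicates 2 and 3, with more in replicate 3, where IRT1 was also highest.

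PDR9, an ABC transporter that exports coumarins, was the most abundant of the 10 genes. It had 2225, 1792 and 1941 reads in athb1-1 (161, 140 and 150.1 CPM) and 1690, 1453 and 1764 reads in WT (157, 132 and 144 CPM). The ranges lay largely within each other. The mean was 150.5 ± 10.8 CPM in athb1-1 and 145 ± 12.4 CPM in WT (SD, n = 3), and the log2 fold change of 0.06 changed sign to −0.01 without WT replicate 2.

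**Figure D2:**
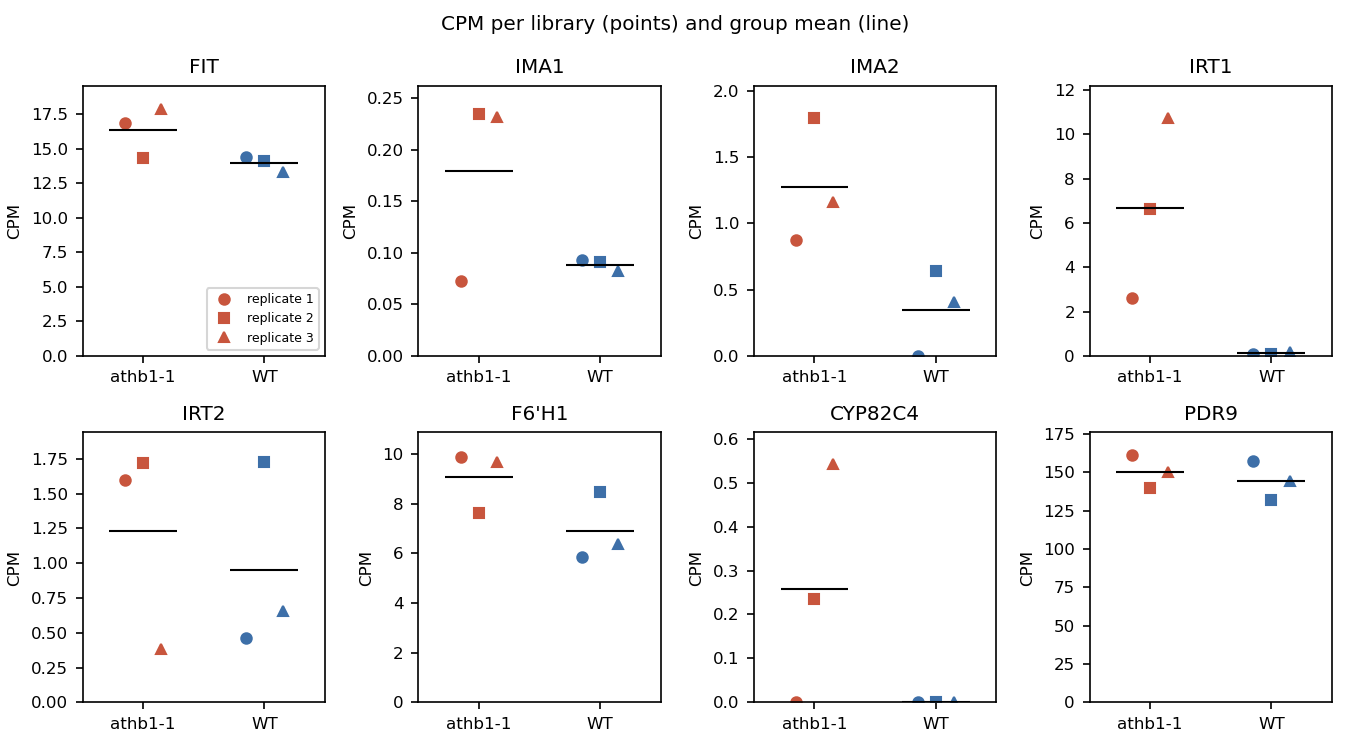
CPM (y axis, linear, each panel on its own scale from 0) of the 8 genes with at least 1 read in the 3 athb1-1 libraries (red) and the 3 WT libraries (blue), with marker shape for the replicate number and a line for the group mean. IRT1 and IMA2 are the genes whose groups do not overlap, and IRT1 spreads from 2.61 to 10.8 CPM in athb1-1.

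Levels of different genes were compared as CPM per kb of exon. In athb1-1 the order was PDR9 (32.1 ± 2.30 CPM per kb), FIT (11.9 ± 1.30), F6'H1 (6.16 ± 0.835), IRT1 (4.26 ± 2.60), IMA2 (1.53 ± 0.568), IRT2 (0.885 ± 0.528), IMA1 (0.231 ± 0.119) and CYP82C4 (0.137 ± 0.144), as mean ± SD CPM per kb of 3 libraries. The ranges of 1 SD around the mean overlapped between the neighbours F6'H1 and IRT1, IRT1 and IMA2, IMA2 and IRT2, and IMA1 and CYP82C4. In WT the order was PDR9 (30.8 ± 2.65), FIT (10.11 ± 0.394), F6'H1 (4.69 ± 0.937), IRT2 (0.681 ± 0.489), IMA2 (0.419 ± 0.387), IMA1 (0.114 ± 0.00756) and IRT1 (0.0741 ± 0.0265), again as CPM per kb. IRT1 thus came next after F6'H1 in athb1-1. In WT, IRT1 and IMA1 rest on 4 and 3 reads in all, so their order cannot be told at this depth, and the SD of IMA1 reflects 1 read in each library. The WT ranges of 1 SD also overlapped between IRT2 and IMA2, between IMA2 and IMA1, and between IMA2 and IRT1.

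**Figure D3:**
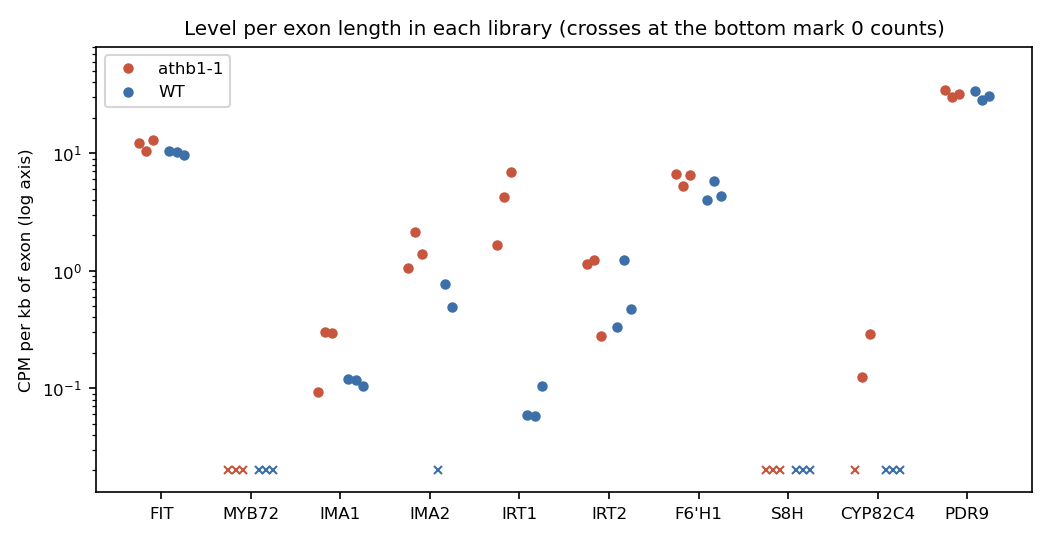
Level of the 10 genes in CPM per kb of exon (y axis, log scale) in each athb1-1 library (red) and each WT library (blue), with crosses at the bottom for libraries with 0 reads. PDR9, FIT and F6'H1 sit at similar heights in both genotypes, and IRT1 averages 4.26 in athb1-1 and 0.0741 in WT.

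Of the 10 genes, 6 had enough reads to enter the test across all genes (FIT, IMA2, IRT1, IRT2, F6'H1 and PDR9). The edgeR quasi-likelihood test called 0 of these 6 at an adjusted p under 0.05, where it called 0.0537% of 18626 genes, and 3 of the 6 had an unadjusted p under 0.05, as did 5.24% of all genes. The DESeq2 Wald test called 1 of the 6, IRT1, where it called 0.11% of the genes it gave an adjusted p. In 2 of the 6, all athb1-1 libraries lay above all WT libraries, as in 5.86% of all genes tested. The 6 log2 fold changes were all positive, as were 51.7% of those of all genes, with a median of 0.36 beside 0.01 for all genes. The authors' deposited table, with its sign turned to athb1-1 over WT, gives log2 fold changes of 0.23 for FIT, 0.93 for IMA1, 1.82 for IMA2, 0.38 for IRT2, 0.39 for F6'H1 and 0.06 for PDR9. The counts above describe genes chosen on this same contrast, and nothing is read from them. IRT1 and IMA2 passed the filter on low counts through their athb1-1 libraries.

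Genes of the iron response outside the 10 were taken from lists drawn up with earlier results of these data known, and none of them passed the test. Of 78 listed genes 64 were tested, and edgeR called 0 higher and 0 lower in athb1-1 at an adjusted p under 0.05, beside 0.0215% called higher and 0.0322% lower among all genes. An unadjusted p under 0.05 was seen for 6 of the 64, each with the higher value in athb1-1, where 5.24% of all genes had one, and DESeq2 called 0.

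Regulators of the iron deficiency response gave no call. Of 16 listed, 13 were tested, 0 passed in either direction or had an unadjusted p under 0.05, and 6 log2 fold changes were positive and 7 negative, with a median of −0.01. The factor bHLH101, a partner of FIT, had 1.89, 2.89 and 1.47 CPM in athb1-1 and 1.49, 1.46 and 1.23 CPM in WT, a log2 fold change of 0.58 (SE 0.30, edgeR adjusted p 0.947). BTSL1, a ubiquitin ligase that limits the response, stood at 11.4 ± 0.139 CPM in athb1-1 and 9.70 ± 0.996 CPM in WT (SD, n = 3), a log2 fold change of 0.23 (SE 0.13, edgeR adjusted p 0.947). IMA3, another gene of the peptide family, had too few reads to be tested, with 3, 7 and 2 in athb1-1 and 1, 0 and 1 in WT, and was chosen after its values were seen.

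Other genes of root iron acquisition gave no call, with more log2 fold changes above 0 than below it. Of 21 listed, 18 were tested and 0 passed in either direction. Log2 fold changes were positive for 14 and negative for 4, where 51.7% of all genes had a positive one. The median was 0.20, beside 0.01 for all genes. The 18 root markers described below had a like lean, with 14 positive, 4 negative and a median of 0.14, so it was not particular to iron genes. An unadjusted p under 0.05 was seen for 5 of the 18 acquisition genes, beside 5.24% of all genes. In 6 of these acquisition genes all athb1-1 libraries lay above all WT libraries, beside 5.86% of all genes. FRO2, the ferric reductase that works with IRT1, had 33, 36 and 71 reads in athb1-1 (2.39, 2.81 and 5.49 CPM) and 21, 18 and 26 reads in WT (1.95, 1.64 and 2.13 CPM). Its groups did not overlap, and athb1-1 replicate 3 was the highest library, as it was for IRT1.

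FRO2 had a log2 fold change of 0.89 (SE 0.32, edgeR adjusted p 0.939). MTP3, which stores zinc in root vacuoles when iron is short, stood at 5.21 ± 0.534 CPM in athb1-1 and 3.39 ± 0.665 CPM in WT (SD, n = 3), a log2 fold change of 0.63 (SE 0.19, edgeR adjusted p 0.762). Both are genes with the smallest unadjusted p of their list. Across athb1-1 replicates 1, 2 and 3, MTP3 had 5.30, 5.70 and 4.64 CPM, lowest in replicate 3, where FRO2 was highest.

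**Figure D4:**
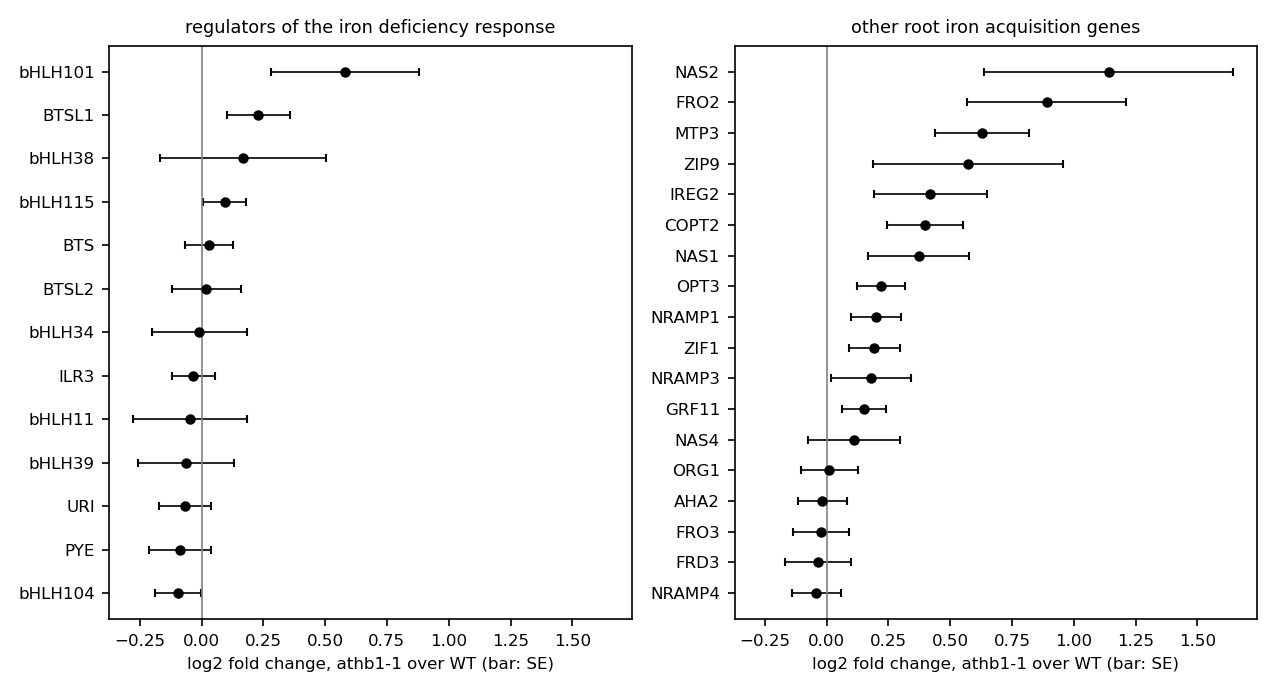
Log2 fold change of athb1-1 over WT (x axis, 0 marked by the grey line) for the 13 tested regulators (left) and the 18 other tested genes of root iron acquisition (right), as points with bars of 1 SE. Regulators lie on both sides of 0 with a median of −0.01, and acquisition genes reach 1.14 with a median of 0.20, and none passes the threshold.

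Coumarin and phenylpropanoid genes outside the 10 gave 0 calls among 13 tested of 14 listed, with 9 positive and 4 negative log2 fold changes and a median of 0.07. CCOAOMT1, which methylates caffeoyl-CoA to the substrate of F6'H1, stood at 228 ± 14.9 CPM in athb1-1 and 191 ± 17.3 CPM in WT (SD, n = 3), a log2 fold change of 0.26 (SE 0.10, edgeR adjusted p 0.939). PAL2, an entry enzyme of the phenylpropanoid pathway, had a log2 fold change of −0.16 (SE 0.10, edgeR adjusted p 0.947).

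The ZIP family, to which IRT1 and IRT2 belong, and genes of zinc transport gave 0 calls and 0 unadjusted p under 0.05 among 11 tested of 15, with a median of 0.09. ZIP4, a zinc transporter, had a log2 fold change of 0.44 (SE 0.25, edgeR adjusted p 0.947) and IRT3, another transporter of the family, one of 0.19 (SE 0.11, edgeR adjusted p 0.947). Known partners of FIT and genes of IRT1 turnover gave 0 calls and 0 unadjusted p under 0.05 among 9 tested of 12, with a median of −0.04. Among these, IDF1, a ubiquitin ligase that acts on IRT1, had a log2 fold change of 0.24 (SE 0.20, edgeR adjusted p 0.971), and ZAT12, a zinc finger protein that binds FIT, one of −0.15 (SE 0.12, edgeR adjusted p 0.966).

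Root markers were measured beside these genes because iron uptake genes are expressed in roots. The 18 root markers summed to 455, 429 and 383 CPM in athb1-1 replicates 1, 2 and 3, and to 385, 436 and 375 CPM in WT replicates 1, 2 and 3, with overlapping groups. Of the 18, edgeR called 0 in either direction, where it called 0.0537% of all genes, and DESeq2 called 0, where it called 0.11%. An unadjusted p under 0.05 was seen for 1 of the 18, beside 5.24% of all genes. Log2 fold changes were positive for 14 root markers and negative for 4, with a median of 0.14 beside 0.01 for all genes.

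Root hair markers, 9 of those 18, summed to 139, 125 and 87.4 CPM in athb1-1 and to 77.6, 127 and 80.7 CPM in WT, with 8 of 9 log2 fold changes positive and a median of 0.33. The athb1-1 library with the most IRT1, replicate 3, had the lowest root hair sum of its group. EXPA18, a root hair expansin, had a log2 fold change of 0.58 (SE 0.21, edgeR adjusted p 0.939), and RSL4, a bHLH factor of root hair growth, one of 0.78 (SE 0.37, edgeR adjusted p 0.939). The 4 endodermis markers had a median of 0.02, the 3 stele markers one of 0.00 and the 2 epidermis fate markers one of 0.13. The 5 shoot markers were all negative, between −0.14 and −0.07. The part of root hair or root content in the values of IRT1 and its companions was not tested.

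The genes with library profiles closest to that of IRT1 were found by the Euclidean distance between standardized log2 CPM over the 6 libraries. These were AT3G21330 (distance 0.194), SUR1 (0.271), PPK1 (0.295), AT5G61310 (0.330) and AT2G19080 (0.336), where the median over 18620 other genes was 3.09. Their size of difference was not like that of IRT1: AT3G21330 stood at 18.9 ± 1.26 CPM in athb1-1 and 14.3 ± 0.412 CPM in WT, and SUR1 at 17.05 ± 0.629 CPM in athb1-1 and 14.4 ± 0.147 CPM in WT (SD, n = 3). The 5 nearest genes were picked for following IRT1, which separates the genotypes, so their genotype values are a description and carry no test. Among the 10 genes, the distance to IRT1 was 1.51 for IMA2, 1.66 for FIT, 1.87 for F6'H1, 2.84 for PDR9 and 3.10 for IRT2. Between 707 (for IMA2) and 9381 (for IRT2) of the other genes were nearer to IRT1 than these.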

How the data were processed

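Total RNA of whole seedlings was sequenced, 3 libraries each of athb1-1 and WT. The authors deposited raw read counts per gene and per exon bin, and, per the submitters' processing notes, reads were aligned to TAIR10 with TopHat2 2.0.8 and Bowtie2 2.1.0, with a counting program and strand setting not given in the sources used here. The authors' deposited table gives log2 fold changes of the genotype comparison, and its 6 other columns of per-library values were not used. In the exon files, 9.85 to 12.1% of entries lay in rows that name no bin and were left out.

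Gene counts were tested with edgeR 4.0.16 in R 4.3.3 (TMM, filterByExpr, robust quasi-likelihood F-test, genotype as the only term), with Benjamini-Hochberg adjustment over all genes tested and a threshold of 0.05. Standard errors were derived from the F statistic as the size of the log2 value over its root. Fold changes of the 10 genes use a prior count of 2, and their ratios carry exact 95% intervals. Reads that were duplicated by PCR are not independent, so intervals and floors of 3 reads cover counting error only. ATHB1 was tested on exon bins summed per locus. The fit was tested on simulated counts with known changes.

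The 10 genes and the lists were chosen with earlier results of these data known. The text names all 10, from each list the called genes and the 2 with the smallest unadjusted p (for marker lists, of the root hair list), and the 5 genes with a library profile nearest to IRT1. Replicates of a genotype differed by more than sampling noise. P-values set the genotype difference against a spread estimated from these libraries, which may be partly technical. DESeq2 1.42.0, other size factors, no filter on low counts, a replicate block and leaving out each library were the alternatives. Positions and sequences are from RefSeq for TAIR10.1, which held 32835 of 33602 gene identifiers.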

Additional observations from a re-analysis of the deposited data

How the results depend on the processing

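The counts of changed genes over all genes, 4 higher and 6 lower in athb1-1, became 12 and 10 by the DESeq2 Wald test and 10 and 9 with no filter on low counts. With single libraries left out they ranged from 3 to 71 higher and from 4 to 94 lower, the largest numbers coming without WT replicate 2; the cause was not tested. The 0 calls in each of the 5 iron lists and in the markers stayed at 0 under all 10 alternatives run. The main fit called 0.0537% of all genes, so 0 calls is a usual outcome for short lists, and nothing is read from it. For IRT1, the log2 fold change of 4.61 became 5.70 with edgeR's default prior count, 5.80 as a ratio of summed counts and 5.82 by DESeq2, which also uses no prior count. It ranged from 4.08 to 4.96 with single libraries left out. For ATHB1 it ranged from −5.61 to −5.48. PDR9, never called, ranged from −0.01 to 0.12.

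Whether the replicate numbers pair the libraries is not stated by the labels and was not settled here. Deviations of same-numbered libraries from their genotype mean correlated at −0.0548, 0.209 and 0.108. Replicates 1, 2 and 3 of athb1-1 correlated best with WT replicates 3 (0.0375), 2 (0.209) and 1 (0.159). Deviations from a mean of 3 libraries are tied to each other, so these correlations cannot decide on pairing. With a replicate block, 6 genes were higher and 6 lower, no listed gene passed (0 in each list), and IRT1 stood at 4.62. Depth limits MYB72, S8H, IMA1 and CYP82C4, which had 0 to 10 reads per genotype in all. For MYB72 the overlap with AT1G56165 may limit the count as well.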

Other observations

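Genes beside IRT1 and the IMA pair were looked at after the values of IRT1 were seen. Values are from the edgeR fit over all genes. AT4G19670, 5169 bases away, had a log2 fold change of 0.03 (SE 0.09), and AT4G19700, 4394 bases away on the other side, had 337, 292 and 310 reads in athb1-1 against 210, 300 and 298 in WT, a log2 fold change of 0.00 (SE 0.12). NPR4, a salicylate receptor gene, stood at 0.02 (SE 0.11), AK-HSDH II, an aspartate kinase and homoserine dehydrogenase gene, at 0.01 (SE 0.10) and AT4G19720 at 0.40 (SE 0.26). Beside IMA1, SDH5, a subunit gene of mitochondrial succinate dehydrogenase, stood at 0.00 (SE 0.10) and AT1G47410 at 0.33 (SE 0.19). None of these passed the threshold.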
